A study of Mus musculus with 16 samples.

Results

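The 40 genes described here are mouse cell cycle genes that run from the proliferation marker Mki67 through mitotic cyclins, kinases and motors to replication and nucleotide synthesis. A gene was measured where a probe set of the mouse array named it and no other gene in the platform annotation, and the probe set of highest mean signal stood for it. This gave a value for 38 of the 40 genes, among 22179 genes measured that way in all. Ccnb1 was named by no such probe set. Ccne2 was named only together with Ints8, so neither gene has a value here.

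RNA was taken from 16 xenografts of LA-N-1, a human neuroblastoma line with MYCN amplification, and hybridized to the Affymetrix Mouse Gene ST array. The tumors grew under the skin of female athymic Nude-Foxn1 nu/nu mice, which lack a thymus and hence most mature T cells. The mice received either cinacalcet, an allosteric activator of the calcium-sensing receptor CaSR, or vehicle, by oral gavage until tumors reached a size limit. The groups compared were 3 tumors with prolonged cinacalcet (tumors 9, 10 and 11, which the study names as treated longest), 4 with shorter cinacalcet (tumors 4, 5, 7 and 8) and 8 with vehicle (tumors 5 to 12). Cinacalcet tumor 6 was left out of the comparisons, following the methods. Treatment length was not assigned, and cannot be told apart from slow tumor growth.

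Dividing cells switch on these genes in 2 waves. At the entry to S phase, E2F factors turn on cyclin E, the MCM helicase subunits, the sliding clamp Pcna and the enzymes that make deoxynucleotides. Later, through G2 and mitosis, the MuvB complex with B-Myb and FoxM1 drives cyclins A and B, Cdk1, Aurora and Polo-like kinases, kinesin motors and the anaphase-promoting complex. In a xenograft the mouse cells that can divide are those of vessels, stroma and blood-borne lineages, and the human tumor cells divide beside them. Human transcripts of these genes may bind to mouse probes. The likeness of the probes to human transcripts was not checked, and no array of human cells alone was analysed here. How much human RNA bound to the probes of each member was therefore not measured.

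The promoters of 6 members are shown, those most correlated with the other members among the genes named by rule, so that the letters known from the 2 waves can be read beside their values. Mki67, Rrm1, Prc1 and Mcm5 among them stood apart in cinacalcet tumor 10, and Ccnb2 in a vehicle tumor. Each runs over 300 bases, from 250 before to 50 after the start site, in RefSeq for the GRCm38.p6 build, written along the strand of the gene. Capitals mark CCAAT (the CCAAT box), TTTGAA or TTTAAA (the CHR element of mitotic genes) and TTCCCGCC or TTTGGCGC (E2F sites), each searched on both strands. The windows are chr7:135716330-135716629 on the minus strand for Mki67, chr7:102441445-102441744 on the plus strand for Rrm1 and chr7:80294201-80294500 on the plus strand for Prc1. They are chr2:132253131-132253430 on the minus strand for Pcna, chr8:75109259-75109558 on the plus strand for Mcm5 and chr9:70421505-70421804 on the minus strand for Ccnb2.
Mki67: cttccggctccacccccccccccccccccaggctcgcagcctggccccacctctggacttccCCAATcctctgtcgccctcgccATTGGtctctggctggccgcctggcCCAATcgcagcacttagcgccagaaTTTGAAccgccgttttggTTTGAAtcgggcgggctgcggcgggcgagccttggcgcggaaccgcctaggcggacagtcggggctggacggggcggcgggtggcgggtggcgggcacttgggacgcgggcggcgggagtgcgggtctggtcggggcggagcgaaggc
Rrm1: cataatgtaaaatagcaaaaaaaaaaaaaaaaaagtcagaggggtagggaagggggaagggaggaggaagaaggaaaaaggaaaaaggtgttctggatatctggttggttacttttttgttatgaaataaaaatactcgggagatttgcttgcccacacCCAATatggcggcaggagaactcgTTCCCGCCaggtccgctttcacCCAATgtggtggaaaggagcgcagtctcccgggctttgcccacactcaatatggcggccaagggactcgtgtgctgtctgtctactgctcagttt
Prc1: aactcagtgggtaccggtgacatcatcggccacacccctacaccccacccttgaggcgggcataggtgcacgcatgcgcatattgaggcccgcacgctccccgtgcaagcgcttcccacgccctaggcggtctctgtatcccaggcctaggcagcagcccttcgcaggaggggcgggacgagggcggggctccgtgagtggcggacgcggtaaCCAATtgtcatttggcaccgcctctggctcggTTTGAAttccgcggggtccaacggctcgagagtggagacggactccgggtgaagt
Pcna: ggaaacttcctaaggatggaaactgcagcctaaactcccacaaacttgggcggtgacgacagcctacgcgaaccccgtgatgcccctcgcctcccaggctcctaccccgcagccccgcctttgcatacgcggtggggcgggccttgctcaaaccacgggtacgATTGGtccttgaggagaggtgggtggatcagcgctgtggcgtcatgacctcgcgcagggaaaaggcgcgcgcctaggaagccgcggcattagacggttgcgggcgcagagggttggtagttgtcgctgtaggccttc
Mcm5: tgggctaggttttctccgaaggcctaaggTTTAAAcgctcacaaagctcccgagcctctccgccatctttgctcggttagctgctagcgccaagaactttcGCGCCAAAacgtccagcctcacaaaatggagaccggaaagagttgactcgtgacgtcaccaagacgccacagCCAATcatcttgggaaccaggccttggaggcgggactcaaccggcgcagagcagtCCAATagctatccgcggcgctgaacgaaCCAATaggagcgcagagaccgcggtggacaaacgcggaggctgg
Ccnb2: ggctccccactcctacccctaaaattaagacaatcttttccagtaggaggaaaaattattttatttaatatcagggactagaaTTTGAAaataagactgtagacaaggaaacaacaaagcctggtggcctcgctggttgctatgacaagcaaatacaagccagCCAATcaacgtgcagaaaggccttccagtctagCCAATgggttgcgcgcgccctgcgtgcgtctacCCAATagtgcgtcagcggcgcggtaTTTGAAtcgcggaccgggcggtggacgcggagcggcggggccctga

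With base 1 at the start site, the Mki67 window held CHR letters at -116 and -98, the Prc1 window at -5 and the Ccnb2 window at -167 and 5. The windows of Rrm1 and Mcm5 held E2F letters, starting at -67 and -149, and that of Mcm5 held CHR letters too, at -221. The Pcna window held a single CCAAT box, at -87 on the opposite strand. A promoter was given for 34 of the members. CHR letters were found in 67.65% of these 34 windows, against 27.82% of the 27025 windows of the same length in the whole table, and CCAAT in 73.53% against 37.92%. E2F letters were found in 11.76% of the members' windows against 2.746% of all windows. The mitotic genes and markers carried CHR letters in 18 of 21 windows and E2F letters in 0 of 21, whereas the S phase and G1/S genes carried them in 5 and 4 of 13. The members' windows had a median of 41.33% A and T, against 47.33% over all windows. A run of letters is a description of the sequence, not a binding site.

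Signal is given on the log2 scale after Robust Multi-array Average (RMA) normalization. A level of one probe set is not compared with that of another. Among the 38 measured members, 16 passed the filter on low signal and low variability that the study applied before its tests. The filter removed 19 for low variability and 3 (Bub1, Birc5 and Rrm2) for low signal, these 3 having a mean under the median probe set of 1.66. Calls rest on limma at an adjusted p under 0.05 (Benjamini-Hochberg), counted over what the filter kept. Counts over all 38 members, and every difference, standard error (SE), interval and unadjusted p, come from limma on all probe sets with no filter, since a filter on variability favors genes that differ. The arrays had medians between 1.58 and 1.76 in the 7 cinacalcet tumors compared and between 1.59 and 1.85 in the vehicle tumors, and correlated with each other at 0.856 to 0.954. The labels give no batch, and p-values measure the spread between tumors.

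**Figure D1:**
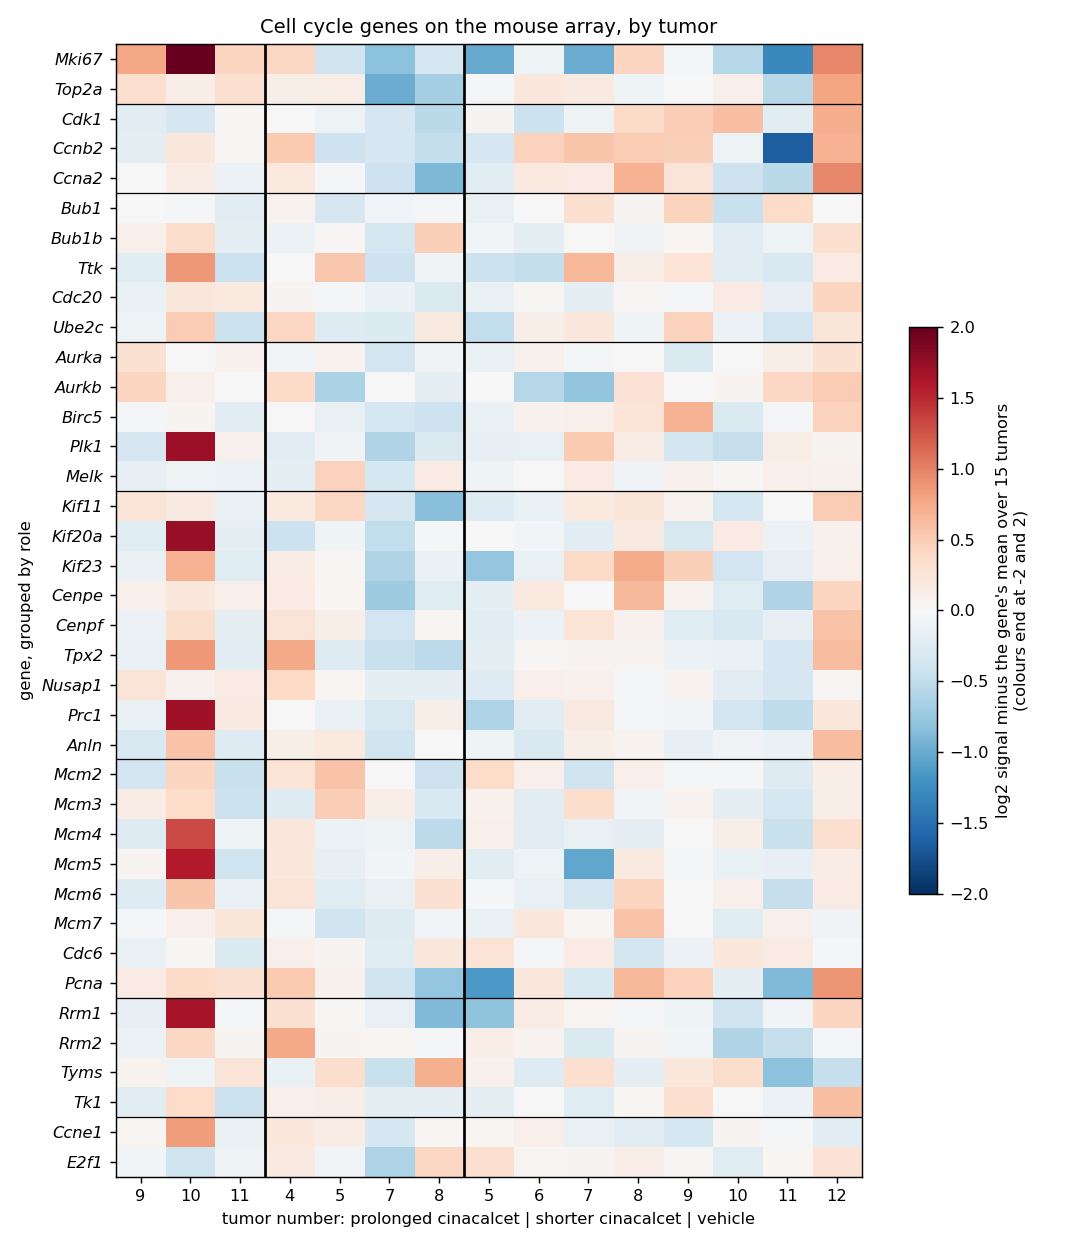
Log2 signal of the 38 measured genes (rows, grouped by role) in the 15 tumors (columns: 3 prolonged cinacalcet, 4 shorter cinacalcet and 8 vehicle tumors, by tumor number), as the difference from each gene's mean over the 15 tumors. The darkest red cells gather in cinacalcet tumor 10 (Mki67, Plk1, Kif20a, Prc1, Mcm4, Mcm5 and Rrm1), while vehicle tumor 12 is red over many rows at a lower height.

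No cell cycle gene was called in any comparison of treatment. In cinacalcet against vehicle tumors 0 of the 16 members tested passed (0% of 10135 probe sets did), and the same 0 of 16 and 0% held for prolonged against vehicle, shorter against vehicle and prolonged against shorter. The members had a median log2 difference of 0.013 between the 7 cinacalcet and the 8 vehicle tumors, against -0.0076 over all genes. For prolonged against vehicle tumors the median was 0.092 against -0.046 over all genes, and for shorter against vehicle tumors -0.087 against 0.0049. Without cinacalcet tumor 10 the members' medians were -0.12 for prolonged and -0.076 for all cinacalcet against vehicle tumors, and the second value ran from there to 0.065 (without vehicle tumor 12) as each tumor was left out.

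At an unadjusted p under 0.05, limma listed 0 members as higher and 2 as lower in cinacalcet tumors (Cdk1 and Birc5), where 1.86% and 2.57% of all genes were listed. For prolonged against vehicle it listed 2 as higher (Mki67 and Prc1), against 3.72% of all genes, and 0 as lower, against 3.06%. For shorter against vehicle it listed 0 as higher (1.79% of all genes) and 1 as lower, Birc5 (1.24%). For prolonged against shorter it listed 1 as higher, Mki67 (2.24%), and 0 as lower (2.95%). These counts, between 0 and 2 of 38, lie near the shares over all genes. With cinacalcet tumor 10 left out, the prolonged count was 0 of 38, where 743 of 22179 genes were listed as higher and 457 as lower. The prolonged count was 6, all higher, with cinacalcet tumor 9 left out and 5, all higher, with cinacalcet tumor 11 left out. The shares of all genes were not set beside these last counts, so whether they are an excess was not tested. The count of 2 lower members for all cinacalcet tumors was 0 without cinacalcet tumor 7 or vehicle tumor 8, 9 or 12. It was 1 without cinacalcet tumor 5 or 11 or vehicle tumor 7 (Cdk1), and 1 without cinacalcet tumor 10 or vehicle tumor 10 (Birc5). Without cinacalcet tumor 8 the 1 member listed was Rrm2, which was higher.

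Members with all 3 prolonged tumors above every vehicle tumor numbered 0 of 38, against 0.658% of all genes. One member, Melk, had all 3 below every vehicle tumor, against 1.35% of all genes. For the 4 shorter tumors these counts were 0 and 0 of 38, against 0.171% and 0.176%.

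Mki67, the nuclear protein that pathologists stain as Ki-67, had the largest difference of the 38 members. It stood at 5.53, 7.33 and 5.20 in the prolonged tumors and at 5.18, 4.36, 3.95 and 4.43 in the shorter ones, against a lowest, median and highest value of 3.47, 4.43 and 5.73 in vehicle tumors. Every prolonged tumor lay above the vehicle median, but only tumor 10 lay above vehicle tumor 12, so the groups overlapped. The difference of prolonged from vehicle tumors was 1.58 (SE 0.49, 95% interval 0.54 to 2.63, unadjusted p = 0.0056 and adjusted p = 0.58 by limma). An exact permutation test of this difference gave p = 0.0364 (two-sided, 3 of 3 tumors above the vehicle mean, 0.0121 being the smallest p that 165 arrangements allow). Without cinacalcet tumor 10 the difference was 0.93 (95% interval -0.12 to 1.97). Against shorter tumors the prolonged tumors differed by 1.54 (SE 0.55, adjusted p = 0.81 by limma), and by 0.89 without tumor 10. Median differences of prolonged from vehicle tumors were also high for lists of macrophage (0.86), T and B cell (0.76) and housekeeping genes (0.73), without a call. Those of endothelial and neuroblastoma lineage genes were 0.079 and 0.012.

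Top2a, the topoisomerase that untangles chromosomes before mitosis, did not share that pattern. It stood at 3.95, 3.75 and 3.92 in prolonged tumors and at 3.72, 3.75, 2.62 and 2.94 in shorter ones, against 3.06, 3.66 and 4.39 (lowest, median and highest) in vehicle tumors. The highest value of all was that of vehicle tumor 12. The difference of prolonged from vehicle tumors was 0.19 (95% interval -0.37 to 0.75).

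Cdk1, the kinase that drives entry into mitosis with cyclins A and B, stood at 2.95, 2.82 and 3.17 in prolonged tumors and at 3.13, 3.05, 2.82 and 2.60 in shorter ones. In vehicle tumors its lowest, median and highest values were 2.72, 3.37 and 3.87. All 7 cinacalcet tumors lay below the vehicle mean, with overlap, and the difference was -0.40 (SE 0.17, unadjusted p = 0.0321, adjusted p = 0.909 over all probe sets by limma). The exact permutation test gave p = 0.0406 (two-sided, 7 cinacalcet and 8 vehicle tumors), unadjusted over the members.

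The 2 measured cyclins of mitosis had differences of the same sign as Cdk1, and neither they nor Cdk1 were called. Ccnb2, a B-type partner of Cdk1, stood at 3.42, 3.83 and 3.63 in prolonged tumors and at 4.12, 3.19, 3.26 and 3.13 in shorter ones, against 1.96, 4.07 and 4.29 (lowest, median and highest) in vehicle tumors. One vehicle tumor, number 11, lay far below the rest. Ccna2, which acts in S phase and early mitosis, ranged from 3.35 to 4.45 in cinacalcet tumors and from 3.71 to 5.22 in vehicle tumors. Their differences between cinacalcet and vehicle tumors were -0.16 (95% interval -0.79 to 0.47) and -0.30 (-0.77 to 0.18), and that of Ccnb2 was -0.41 without vehicle tumor 11.

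Among the mitotic kinases and the passenger complex, Birc5 (survivin), which targets Aurora B to centromeres, stood at 1.40, 1.48 and 1.20 in prolonged tumors and at 1.42, 1.27, 1.08 and 1.01 in shorter ones. Its lowest, median and highest values in vehicle tumors were 1.14, 1.52 and 2.13. The difference between cinacalcet and vehicle tumors was -0.30 (SE 0.14, unadjusted p = 0.0484, adjusted p = 0.909 over all probe sets by limma), at a signal below the median probe set. Melk, a kinase of proliferating cells, stood at 2.57, 2.63 and 2.62 in prolonged tumors, just under the vehicle range of 2.64 to 2.90, and spread from 2.39 to 3.19 in the shorter tumors. The difference of prolonged from vehicle tumors was -0.17 for Melk (95% interval -0.49 to 0.15). Plk1, the Polo-like kinase of centrosomes and mitotic exit, stood at 3.66, 5.71 and 4.09 in prolonged tumors and ranged from 3.54 to 4.53 in vehicle tumors, so that 1 tumor made its difference of 0.52 (-0.09 without tumor 10).

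Prc1, which bundles the microtubules of the central spindle, was the other member listed for prolonged cinacalcet. It stood at 4.08, 5.92 and 4.39 in prolonged tumors and at 4.23, 4.08, 3.90 and 4.33 in shorter ones, against 3.60, 4.09 and 4.45 (lowest, median and highest) in vehicle tumors. Only tumor 10 lay outside the vehicle range. The difference of 0.75 (SE 0.30, unadjusted p = 0.0251, adjusted p = 0.58 by limma) was 0.19 without that tumor. Kif20a, a kinesin of cytokinesis, showed the same shape, with 2.96, 4.95 and 3.003 in prolonged tumors against 2.89 to 3.38 in vehicle tumors. The other motors and spindle genes had differences between -0.002 and 0.24 for prolonged against vehicle tumors. The spindle checkpoint and APC/C genes (Bub1, Bub1b, Ttk, Cdc20 and Ube2c) lay between -0.15 and 0.13.

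**Figure D2:**
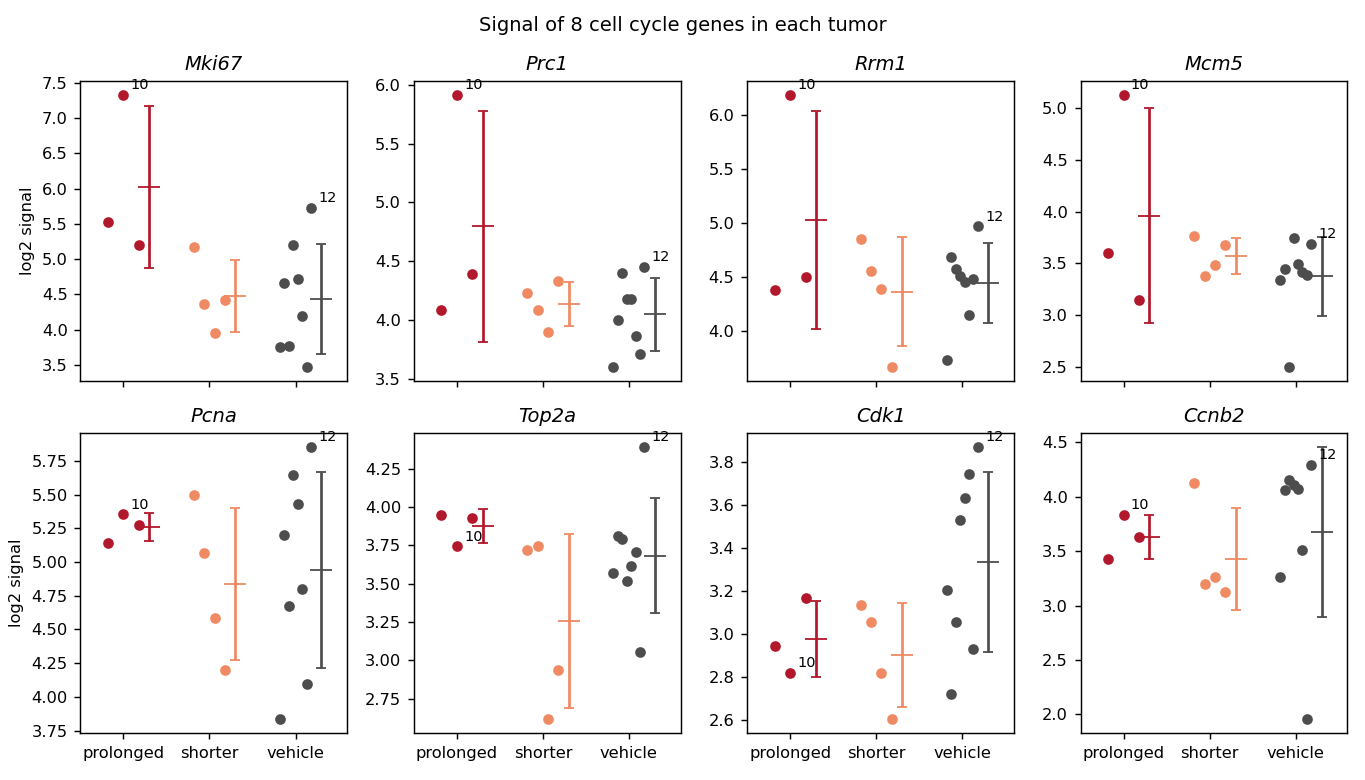
Log2 signal of 8 members in each tumor, with 3 prolonged cinacalcet, 4 shorter cinacalcet and 8 vehicle tumors from left to right. Each point is a tumor, the dash with bars beside it is the mean ± SD, and the labels 10 and 12 mark cinacalcet tumor 10 and vehicle tumor 12: tumor 10 lies alone above all others for Mki67, Prc1, Rrm1 and Mcm5 but not for Pcna, Top2a, Cdk1 and Ccnb2.

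Of the replication genes, the MCM helicase subunits differed among themselves. Mcm5 stood at 3.60, 5.13 and 3.15 in prolonged tumors and at 3.76, 3.37, 3.48 and 3.67 in shorter ones, against 2.50, 3.43 and 3.74 (lowest, median and highest) in vehicle tumors. Its difference for prolonged against vehicle was 0.58 (95% interval -0.12 to 1.28), and -0.002 without tumor 10. Mcm4 had 3.58, 5.16 and 3.75 against a vehicle range of 3.40 to 4.16. Mcm3, another subunit of the same ring, stood at 4.54, 4.76 and 3.95 in prolonged tumors and at 4.12, 4.88, 4.52 and 4.09 in shorter ones, against 4.04, 4.40 and 4.75 in vehicle tumors, with no tumor apart from the others and a difference of 0.048 (95% interval -0.39 to 0.49).

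Pcna, the clamp that holds DNA polymerases on their template, stood at 5.14, 5.36 and 5.28 in prolonged tumors and at 5.50, 5.06, 4.58 and 4.20 in shorter ones, against 3.83, 5.00 and 5.85 (lowest, median and highest) in vehicle tumors. The prolonged tumors sat close together inside a wide vehicle range, with a difference of 0.32 (95% interval -0.51 to 1.14). Cdc6, which loads the helicase onto origins, stood at 1.91, 2.08 and 1.76 in prolonged tumors and at 2.15, 2.10, 1.80 and 2.27 in shorter ones, against 1.69, 2.12 and 2.33 in vehicle tumors. Its difference for prolonged tumors was -0.17 (95% interval -0.50 to 0.16).

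The enzymes of deoxynucleotide synthesis did not share one pattern. Rrm1, the large subunit of ribonucleotide reductase, stood at 4.38, 6.19 and 4.50 in prolonged tumors and at 4.85, 4.55, 4.38 and 3.66 in shorter ones, against 3.73, 4.50 and 4.97 in vehicle tumors. Without tumor 10 its difference of 0.58 was -0.0043. Rrm2, the small subunit, stood at 1.53, 2.07 and 1.71 in prolonged tumors and at 2.41, 1.70, 1.69 and 1.62 in shorter ones, against 1.05, 1.62 and 1.79 in vehicle tumors. Rrm2 was above its vehicle mean in 7 of 7 cinacalcet tumors, with a difference of 0.31 (SE 0.15, unadjusted p = 0.0566, adjusted p = 0.909 over all probe sets by limma). Its mean signal was 1.65, under the median probe set, and a list of 16 genes taken as silent in these tumors had a mean of 1.62. Of its 2 probe sets, the one of higher mean signal is given. Tyms, thymidylate synthase, had 2.43, 2.28 and 2.62 in prolonged tumors and 2.24, 2.72, 1.91 and 3.08 in shorter ones, against 1.55, 2.32 and 2.72 in vehicle tumors. Ccne1, the cyclin E that opens S phase, had 3.09, 3.89 and 2.92 in prolonged tumors and 3.26, 3.19, 2.72 and 3.07 in shorter ones, against 2.70, 2.96 and 3.15 in vehicle tumors, a difference of 0.35 (95% interval -0.056 to 0.75) for prolonged tumors that was 0.053 without tumor 10.

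**Figure D3:**
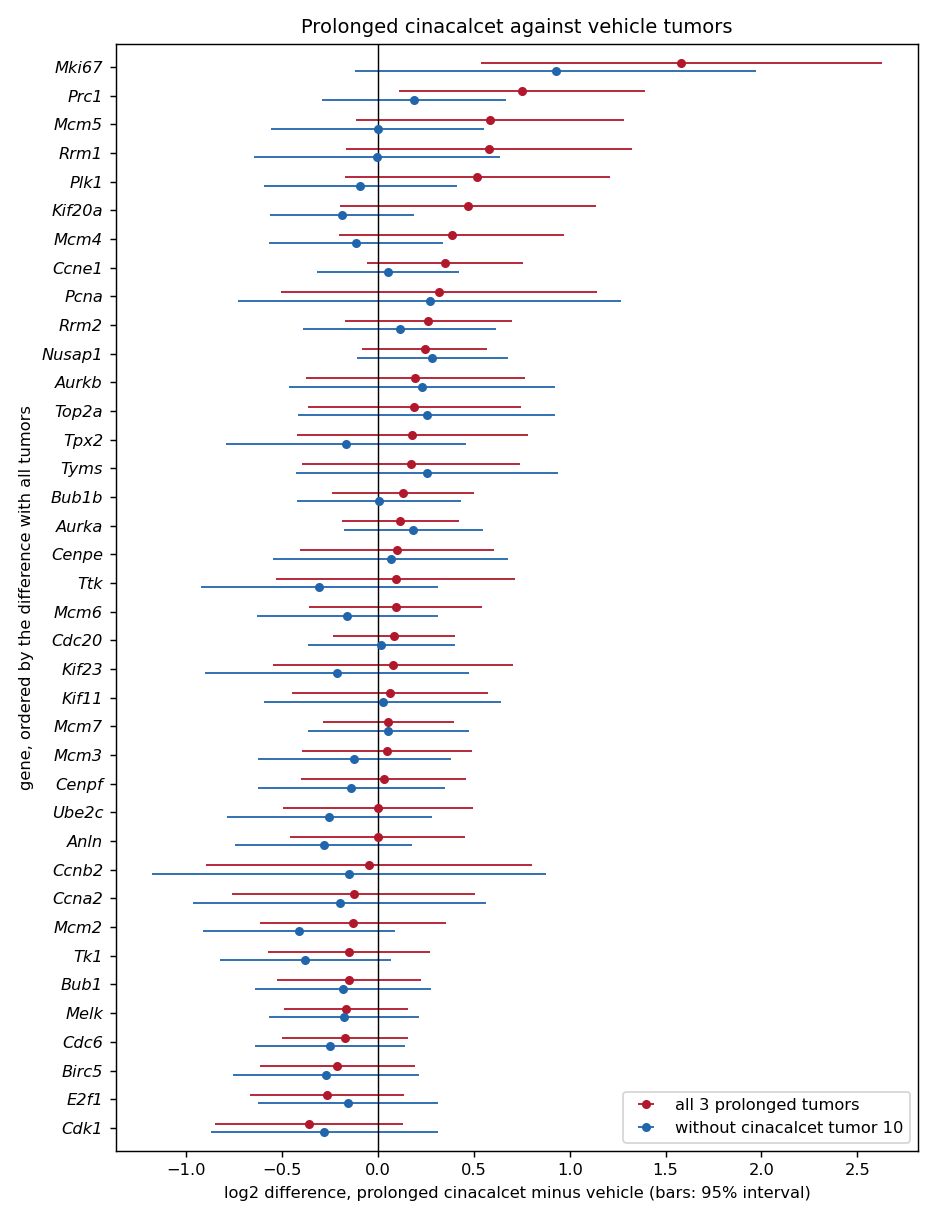
Log2 difference between prolonged cinacalcet and vehicle tumors for each of the 38 members, with 95% intervals, for all 3 prolonged tumors (red) and without cinacalcet tumor 10 (blue). With tumor 10 the intervals of Mki67 and Prc1 lie above 0, and without it every interval covers 0.

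Cinacalcet tumor 10 stood apart from the rest. It held the highest value of the 15 tumors in 12 of the 38 members, against 8.26% of 22179 genes. In 7 of the 12 it led the next tumor by over 1 log2 unit, against 195 of the 22179 genes (0.879%). The gaps to the next tumor were 1.60 for Mki67, 1.57 for Kif20a, 1.46 for Prc1, 1.37 for Mcm5, 1.22 for Rrm1, 1.18 for Plk1 and 1.003 for Mcm4. These 7 genes came from 5 of the 8 roles, and both waves were among them. No mitotic cyclin was highest there, and Cdk1 at 2.82 lay under the vehicle median. Vehicle tumor 12 held the highest value in another 12 members, against 4.06% of all genes, among them Top2a, Ccna2, Ccnb2, Cdk1, Pcna, Tk1 and Cdc20, but in 0 of 38 by over 1 log2 unit. Its largest lead was 0.44, in Top2a.

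Genes of the neuroblastoma lineage also stood apart in cinacalcet tumor 10. Of 18 measured genes of that list, 9 were highest there and 5 (Isl1, Th, Chgb, Dcx and Tubb3) by over 1 log2 unit. The mean of the list was 3.56 in tumor 10, against 2.23 to 2.81 in the other 14 tumors. It ranged from 2.29 to 3.56 in cinacalcet tumors. Th, the enzyme that starts catecholamine synthesis, stood at 6.57 there and at most at 2.04 elsewhere. The endothelial, macrophage and fibroblast lists had 0 genes highest in tumor 10. The mural list, of pericytes and smooth muscle, had 2 of 6, and its mean of 6.40 in tumor 10 was level with the highest of the other tumors. Of 9 housekeeping genes 3 were highest there, Tubb5 by over 1 log2 unit, and their mean was 8.11 in tumor 10, against 6.87 to 7.90 elsewhere. Whether the human cells or the mouse cells of that tumor gave its cell cycle signal was not tested.

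Over the 15 tumors, many members varied with the mean of the rest. Each member was correlated with the mean of the other 37, with no test, since tumors and arrays are shared. The median Pearson r was 0.60, from -0.18 for Cdc6 to 0.87 for Tpx2, and 25 of 38 were over 0.5. The other 22141 genes had a median r of -0.07 with the mean of the members, and 7.15% of them were over 0.5. Without cinacalcet tumor 10 the members' median was 0.53, with 20 of 38 over 0.5. Single pairs of members had a median r of 0.29, and of 0.19 without both tumor 10 and vehicle tumor 12. In that smaller set the members' median with the mean of the others was 0.39, with 14 of 38 over 0.5. Cenpe (0.89), Ccna2 (0.80), Kif23 (0.77) and Pcna (0.77) had the highest values in that last set, against 0.70 to 0.75 over all 15 tumors, whereas Kif20a dropped to 0.02 and Mcm5 to 0.08. The genes outside the cell cycle lists most like the mean of the members over the 15 tumors were Cct5 (r = 0.88), Elp2 (0.85), Tufm (0.84), Pnn (0.84) and Mrpl18 (0.83), among 5020 genes that passed the filter. Without both tumors these r values were 0.71, 0.66, 0.56, 0.81 and 0.63 in the same order.

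The members were then set against the mean of Cdh5, Cd68 and Col1a1, which mark endothelial cells, macrophages and fibroblasts of the host. This host mean stood at 8.07, 8.55 and 8.17 in prolonged tumors and at 8.29, 6.73, 8.19 and 7.85 in shorter ones, and ranged from 5.98 to 8.73 in vehicle tumors. In bulk RNA, fewer cells of a type and less RNA per cell cannot be told apart. In a fit with the treatment group, 2 of the 16 members tested had a slope above 0 at an adjusted p under 0.05, where 20.8% of 10132 probe sets did, and 0 had a slope below 0, where 3.4% did. The 2 members were Pcna, with a slope of 0.57 per log2 unit of the host mean (SE 0.14, adjusted p = 0.0178 by limma), and Mki67, with 0.74 (SE 0.24, adjusted p = 0.0378 by limma). Ccnb2 had 0.44 (SE 0.17, adjusted p = 0.0834). The lowest slopes were those of Cdc6 (-0.16), Tyms (-0.15) and Melk (-0.09), all without a call. In the fit on all probe sets, 8 of the 38 members had a slope above 0 at an unadjusted p under 0.05, against 14.3% of all genes, and 1 had a slope below 0, against 15.3%. Without cinacalcet tumor 10 these counts were 4 and 1, against 3184 and 3282 of 22179 genes. Mki67 lost its call without cinacalcet tumor 5 or vehicle tumor 7, 8, 9, 11 or 12, with slopes of 0.66 to 0.78, and Pcna without vehicle tumor 5, with 0.53. Neither passed without vehicle tumors 5 and 11 together, where the slope was 0.98 for Mki67 and 0.39 for Pcna, or among the cinacalcet tumors alone, where it was 1.01 for Mki67 and 0.17 for Pcna. Those fits called 543 and 8 of 10135 probe sets. With the host mean taken over 4 marker lists, Mki67 had 0.77 (adjusted p = 0.0833 by limma) and Ccnb2 passed with 0.60 (adjusted p = 0.0465 by limma).

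**Figure D4:**
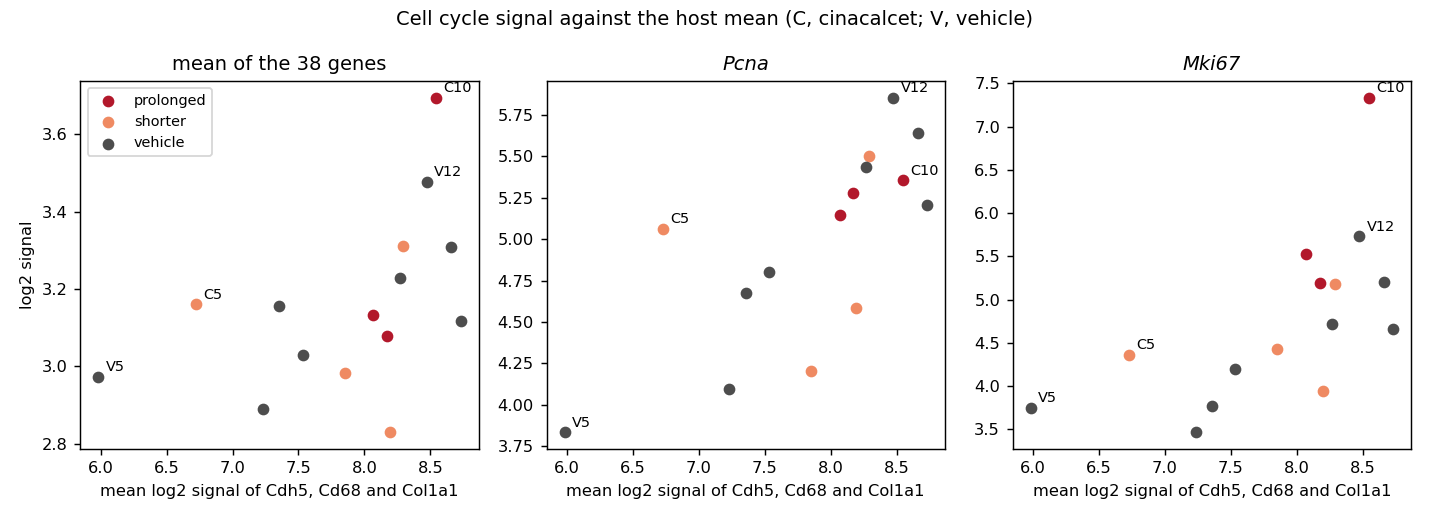
Log2 signal of the mean of the 38 members, of Pcna and of Mki67 (vertical axes) against the mean log2 signal of Cdh5, Cd68 and Col1a1 (horizontal axes) in 15 tumors, colored by group, with cinacalcet tumors 10 and 5 and vehicle tumors 12 and 5 marked. Pcna and Mki67 are low in vehicle tumor 5, where the host mean is lowest (5.98), and Mki67 in cinacalcet tumor 10 lies far above the trend of the rest.

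Correlation with the host mean over the 15 tumors was positive for 31 of 38 members, with a median r of 0.25 against -0.15 over 22176 genes. It was largest for Pcna, with r = 0.73 (permutation p = 0.0017, adjusted p = 0.0246 over all genes) and Spearman rho = 0.78 (permutation p = 0.0011, adjusted p = 0.0356). Pcna kept an r of 0.77 without vehicle tumor 5 and cinacalcet tumor 5, the tumors farthest from the median host mean of 8.17. Within groups it had r = 0.22 in the 7 cinacalcet tumors (exact permutation p = 0.6375) and 0.91 in the 8 vehicle tumors (exact permutation p = 0.0012), and the difference between these r values was not tested. Mki67 had r = 0.62 (permutation p = 0.0159, adjusted p = 0.0826) and rho = 0.72 (permutation p = 0.0033, adjusted p = 0.0529), and 0.67 without those 2 tumors. Its r was 0.53 in cinacalcet tumors (exact permutation p = 0.194) and 0.78 in vehicle tumors (exact permutation p = 0.0194). Cdc6 ran the other way, with r = -0.64 (permutation p = 0.0094, adjusted p = 0.0618) and rho = -0.63 (permutation p = 0.0155, adjusted p = 0.0986). Its r was -0.63 without those 2 tumors, -0.25 in cinacalcet tumors and -0.82 in vehicle tumors. The mean signal of Cdc6 was low, at 2.05. The list of genes taken as silent ran the same way, with r = -0.66 for its mean and a host slope below 0 in 16 of 16 genes. Whether the relation is particular to Cdc6 was not tested.

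The mean of the 38 members, described without a test, had r = 0.48 with the host mean over the 15 tumors, 0.29 in cinacalcet tumors and 0.69 in vehicle tumors. It was 3.13, 3.69 and 3.08 in prolonged tumors and 3.31, 3.16, 2.83 and 2.98 in shorter ones, against 2.89 to 3.48 in vehicle tumors, so the groups overlapped, with prolonged tumor 10 above every vehicle tumor and shorter tumor 7 below every one. Its r with the mean of 7 macrophage genes was 0.53 (0.28 in cinacalcet and 0.82 in vehicle tumors). With the mean of 6 endothelial genes it was 0.05, with -0.33 in cinacalcet and 0.80 in vehicle tumors. With 18 neuroblastoma lineage genes r was 0.37, and -0.43 without cinacalcet tumor 10. The array medians had r = -0.51 with the members and -0.86 with the host mean, and 9 housekeeping genes had 0.63 with the members and 0.87 with the host mean. The part of array scale in these relations was not tested.

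Cell cycle genes beyond the 40 were read from fixed lists, and none passed in the comparisons of treatment. Of 30 measured S phase genes, 2 were higher and 0 lower in prolonged than in vehicle tumors at an unadjusted p under 0.05 (3.72% and 3.06% of all genes were), with a median of 0.075 against -0.046 over all genes. The 2 were E2f8, a repressor of the E2F wave, with 0.73 (SE 0.28, adjusted p = 0.682 over all probe sets by limma) and 0.18 without cinacalcet tumor 10, and Prim2, a primase subunit, with 0.68 (SE 0.27) and 0.62 without that tumor. Pole, the leading-strand polymerase, was lower in cinacalcet than in vehicle tumors by that measure, with -0.33 (SE 0.14), and Fen1, which trims Okazaki fragments, had -0.23 without reaching it. Of 47 measured G2/M genes, 3 were higher and 2 lower in prolonged tumors, against the same shares of all genes, with a median of 0.009. The depolymerizing kinesin Kif2c had -0.44 (SE 0.14) and the phosphatase Cdc25b, which activates Cdk1, 0.53 (SE 0.17, and 0.42 without cinacalcet tumor 11, where it was not listed). In cinacalcet against vehicle tumors Cdc25b had 0.28 and the kinesin Kif18a -0.29, neither listed.

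Genes that slow or leave the cycle were read in the same way. Of 16 measured, 3 were higher and 1 lower in cinacalcet than in vehicle tumors at an unadjusted p under 0.05 (1.86% and 2.57% of all genes were), with a median of 0.16 against -0.0076 over all genes. In prolonged tumors 1 was higher and 0 lower, with a median of 0.20. In cinacalcet and prolonged tumors the macrophage list had larger medians (0.50 and 0.86), as had fibroblast (0.38 and 0.53) and housekeeping genes (0.23 and 0.73). The mural list had 0.14 and 0.24, and the endothelial list 0.11 and 0.079. The 1 lower gene was Cdkn2a, with -0.28 in cinacalcet tumors, which lost its listing in 11 of the 15 fits that left out 1 tumor. Btg2, an antiproliferative gene, had a difference of 0.64 (SE 0.28, adjusted p = 0.909 over all probe sets by limma) in cinacalcet tumors and 1.05 (SE 0.34, adjusted p = 0.666) in prolonged ones, the second value being 0.69 without cinacalcet tumor 9. Btg1, its relative, had 0.33 (SE 0.14) in cinacalcet tumors, and Ccng1, cyclin G1, 0.90 (SE 0.47) in prolonged ones. Of 8 measured G1 cyclins and kinases, 1 was higher in cinacalcet tumors (Cdk6, partner of D cyclins, 0.37, SE 0.15) and 1 in prolonged tumors (Ccnd1, 0.57, SE 0.24, and 0.11 without cinacalcet tumor 10). As each of the 15 tumors was left out, Btg2 lost its listing for all cinacalcet tumors in 8 cases, Btg1 in 6, and Cdk6 and Pole in 5 each. Ccnd2 had 0.83 (SE 0.47) in prolonged tumors and Myc -0.18 (SE 0.17) in cinacalcet tumors, neither listed.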

How the data were processed

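Total RNA of 16 LA-N-1 xenografts had been hybridized to a mouse gene array. The authors deposited log2 signals after RMA normalization. The tools in the submitters' processing notes are RMA, R 3.2 and limma 3.24, and the chip annotation used was the platform's own, with symbols checked by Entrez identifier. The deposited log2 values were used as they stood. Following the study's methods, cinacalcet tumor 6 was left out, probe sets were filtered by mean signal (lower 50% removed) and next by SD (lower 50% of those remaining removed), and the 10135 left were tested with limma 3.58.1 in R 4.3.3. Prolonged, shorter and vehicle tumors shared 1 fit, and the host slope was fitted with the group. All probe sets were also fitted with no filter, 1 per gene. Permutation tests used 100000 draws, or every arrangement within groups, in Python 3.11.15 with scipy 1.17.1. Scripts were tested on simulated data.

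The members and lists were chosen with earlier results of these data known. Values are given for Mki67, Top2a, Pcna and Cdk1, the 4 members of highest mean signal, the 4 of smallest p in cinacalcet and in prolonged against vehicle tumors, and the 3 of steepest and of lowest host slope. Plk1, Kif20a, Mcm4 and Ccna2 were added after their values were seen. Promoters were printed for the 6 named members most correlated with the others. Numbers of arrays, not read depth, limit the precision. Tumor numbers are shared by both groups, and the fit that treats them as pairs is given with the alternatives.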

Additional observations from a re-analysis of the deposited data

Results flagged for a closer look

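Among 81 groups of tumors examined for a single tumor far from the others, 7 had one. The groups overlap and the named members were chosen from these data, so a chance rate of about 5% is no yardstick here. The host mean was low in cinacalcet tumor 5, at 6.73 with the nearest other cinacalcet tumor at 7.85. Cinacalcet tumor 10 stood above the other cinacalcet tumors for Prc1, at 5.92 with the next at 4.39, and for Mcm5, at 5.13 with the next at 3.76. Cinacalcet tumor 4 stood above the other shorter tumors for Rrm2, at 2.41 with the next at 1.70, and for Ccnb2, at 4.12 with the next at 3.26. Vehicle tumor 7 was low for Mcm5, at 2.50 with the nearest at 3.33, and vehicle tumor 11 was low for Ccnb2, at 1.96 with the nearest at 3.26.

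Cinacalcet tumor 6, which took no part in the comparisons, lay above every vehicle tumor for 5 of the named members. It stood at 5.98 for Mki67 against a vehicle maximum of 5.73, at 2.50 for Birc5 against 2.13, at 2.54 for Rrm2 against 1.79, at 4.64 for Prc1 against 4.45 and at 3.85 for Mcm5 against 3.74. Its host mean was 9.03, above the highest of the other tumors (8.73). The paper excluded this tumor as an outlier, for its distance from the other arrays and its distribution of intensities. The share of all genes above every vehicle tumor there was not set beside these values. Whether they are particular to the cell cycle genes was not tested.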

How the results depend on the processing

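No member was called in any comparison of treatment under the 31 alternatives run. Centring each array on housekeeping genes (median difference 0.73 in prolonged tumors) moved the median of all genes to -0.25 in cinacalcet and -0.58 in prolonged against vehicle tumors and that of the members to -0.229 and -0.446; relative to all genes the members stayed at 0.020 and 0.14. Under it the prolonged count at an unadjusted p under 0.05 (2 higher, 0 lower) became 11, with 1 higher (Mki67) and 10 lower. The share of all genes was not set beside this count. Since the median of all genes (-0.58) lay below that of the members (-0.446), the 10 cannot be read as particular to the members. Signs turned under this centring (where 2 values stand in brackets, for all cinacalcet and for prolonged tumors) for Ccne1 (prolonged, -0.19), Mcm3 (-0.20 and -0.49), Pcna (-0.17 and -0.22), Rrm1 (-0.041) and Top2a (prolonged, -0.35). That prolonged count was 1 with array weights, quantile normalization, the replicate block, without vehicle tumors 5 and 11, or without cinacalcet tumor 10 and vehicle tumor 12 (an alternative chosen after seeing the data), and 0 to 6 without 1 tumor. The cinacalcet count was 1 with median centring (Rrm2, higher), a neuroblastoma lineage covariate or the replicate block (Cdk1, lower, in both), 0 without cinacalcet tumor 10 and vehicle tumor 12, and 0 to 3 without 1 tumor. The prolonged median ran between -0.12 and 0.19 without 1 tumor. Mcm3 turned with array weights (-0.027 and -0.046), the lineage covariate (-0.0023 and -0.027), quantile normalization (-0.092 and -0.20) and without cinacalcet tumor 10 and vehicle tumor 12 (prolonged, -0.10), and ran -0.039 to 0.12 and, prolonged, -0.12 to 0.28 without 1 tumor. Pcna turned with array weights (-0.072), a host covariate (-0.038), quantile normalization (-0.043) and without vehicle tumors 5 and 11 (-0.25 and -0.0093), and ran -0.083 to 0.21 without 1 tumor. Without 1 tumor Rrm1 ran -0.056 to 0.37 and, prolonged, -0.0043 to 0.90, and Mcm5 -0.0020 to 0.99. The host slope of Melk was 0.0095 with median centring and 0.013 in vehicle tumors alone. Members with a called host slope numbered 5 with median centring, 4 with the lineage covariate, 1 with no filter, the signal filter alone or vehicle tumors alone, 0 with quantile normalization, housekeeping centring (where Cdc6, -0.69, adjusted p = 0.0223, and Melk, -0.57, adjusted p = 0.039, passed below 0 by limma over all probe sets with no filter), the replicate block, cinacalcet tumors alone or either pair of tumors left out, and 1 to 2 without 1 tumor. With the host mean over 4 marker lists the count stayed at 2, with Ccnb2 in place of Mki67. Of all 10135 probe sets, median centring called 3776, the lineage covariate 2016 and housekeeping centring 3271. Quantile normalization called 1103 and vehicle tumors alone 1444. With no filter 3446 of 40543 probe sets were called, and with the signal filter alone 3243 of 20271. Without vehicle tumors 5 and 11 the number was 543, and without cinacalcet tumor 10 and vehicle tumor 12 it was 1753. Fits without 1 tumor that left 1 member called had between 1562 and 2262 calls in all. The replicate block called 0 and cinacalcet tumors alone 8, so a count of 0 members there says little about the members. No pairing by the tumor numbers shared by both groups was evident, but 6 pairs without a test cannot exclude one. The correlation of deviations was -0.24 to 0.37, with 2 of the 6 over 0.1, and 1 of the 6 correlated best with its own number. The causes of these changes were not tested. Birc5 and Rrm2 had mean signals of 1.43 and 1.65, under the median probe set and beside 1.62 for the list of silent genes, which limits what can be read from them.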
